A study of Mus musculus with 9 samples.

Results

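The genes described here build and run the mitotic spindle and the kinetochore. They were given as a list of 40 symbols, and each was read from the probe set whose annotated symbol is that gene. Of the 40 genes, 39 were measured, among 22180 genes with a probe set of their own. Ccnb1 was not listed in the platform annotation used here. Each measured member had exactly 1 probe set of a single symbol, so no member's level rests on a choice between such probe sets. Probe sets that list Top2a with another gene were left out.

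All 9 arrays held total RNA of the NG4 line, a mouse embryonic stem cell line of the 129/Sv strain that carries a Nanog-GFP reporter. The cells grew with LIF on gelatin, without feeder cells named in the labels, and received a pLKO.1 lentivirus that expressed a short hairpin RNA. The groups were shControl (a control hairpin), shPhf5a (a hairpin against Phf5a, a subunit of the SF3b splicing complex) and shPaf1 (a hairpin against Paf1, the subunit that names the Paf1 elongation complex). Puromycin at 2 μg/mL was applied to every group over 72 h, and each group has 3 arrays. The controls thus share the virus, the selection and the reporter with the knockdowns. The labels name a single hairpin per group and do not say whether the 3 arrays came from separate cultures. The p-values therefore measure the spread between these arrays, which may be technical. Values are the authors' deposited expression levels, taken as log2, and a change is a difference of group means on that scale.

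Entry into mitosis is driven by Cdk1 with cyclins A and B, and the Plk1, Aurora and Nek2 kinases act beside it. The Ndc80 complex of the kinetochore holds spindle microtubules, and the checkpoint proteins Mad2l1, Bub1, Bub1b, Bub3 and Ttk hold back the anaphase promoting complex until all chromosomes are attached. Cdc20 then activates that complex, securin (Pttg1) is degraded, separase (Espl1) cuts cohesin, and the midzone proteins prepare cytokinesis. Transcription of many of these genes peaks late in the cell cycle. The MuvB core with B-Myb (Mybl2) and Foxm1 activates it, the DREAM complex represses it in resting cells, and the cell cycle genes homology region, the CCAAT box of NF-Y and E2F sites are the promoter elements known for this control. Embryonic stem cells divide fast and carry high levels of these transcripts.

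Because these genes are known for shared promoter elements, the 250 bases before the annotated starts were searched on both strands in the RefSeq promoter table (build GRCm38.p6). The searched words were TTTGAA (the core of the cell cycle genes homology region), CCAAT, and the E2F words TTTCCCGC and TTTGGCGC, and words that overlap were each counted. Of the 39 measured members 32 had an entry, with 35 promoters, since Bub3, Ect2 and Prc1 have more than 1. CCAAT stood in 27 of the 35 promoters (77.1%), against 33.8% of all 32851 promoters of the table. TTTGAA stood in 14 of the 35 (40%), against 16% of all. Both words stood together in 11 members, namely Bub3, Ccnb2, Cdc20, Cdk1, Ect2, Espl1, Kif11, Mki67, Prc1, Top2a and Ube2c, and in 5.55% of all promoters. TTTGGCGC was found in Kif18a alone (0.417% of all promoters) and TTTCCCGC in no member (0.895% of all). None of the 4 words was found in this window of Anln, Birc5, Mad2l1, Ndc80, Nuf2 and Pttg1. Aurkb, Ccna2, Cdc25c, Incenp, Kif20a, Spc24 and Tpx2 have no entry in the table. A match is a description of these letters and not of a bound site.

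The windows of 5 members whose level fell in both knockdowns are shown to let the arrangement of the words be compared, with capitals marking a match on either strand and the last base next to the annotated start.
Cdk1, chr10:69352913-69353162, minus strand: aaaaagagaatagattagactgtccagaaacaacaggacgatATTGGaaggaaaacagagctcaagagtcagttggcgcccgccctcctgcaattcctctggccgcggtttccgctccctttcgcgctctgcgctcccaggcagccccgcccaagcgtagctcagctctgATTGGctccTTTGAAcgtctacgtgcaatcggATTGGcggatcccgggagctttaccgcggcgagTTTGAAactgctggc
Ccnb2, chr9:70421555-70421804, minus strand: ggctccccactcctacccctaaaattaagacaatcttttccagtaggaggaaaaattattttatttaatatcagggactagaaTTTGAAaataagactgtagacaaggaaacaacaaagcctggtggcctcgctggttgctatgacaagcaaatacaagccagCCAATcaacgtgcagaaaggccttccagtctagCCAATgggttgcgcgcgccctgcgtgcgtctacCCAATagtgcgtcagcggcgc
Cenpa, chr5:30666636-30666885, plus strand: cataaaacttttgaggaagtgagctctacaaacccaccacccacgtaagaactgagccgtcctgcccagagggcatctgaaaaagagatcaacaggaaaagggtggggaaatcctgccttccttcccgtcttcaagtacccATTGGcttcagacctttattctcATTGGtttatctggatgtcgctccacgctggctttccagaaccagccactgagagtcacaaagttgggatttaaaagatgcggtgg
Kif2c, chr4:117178773-117179022, minus strand: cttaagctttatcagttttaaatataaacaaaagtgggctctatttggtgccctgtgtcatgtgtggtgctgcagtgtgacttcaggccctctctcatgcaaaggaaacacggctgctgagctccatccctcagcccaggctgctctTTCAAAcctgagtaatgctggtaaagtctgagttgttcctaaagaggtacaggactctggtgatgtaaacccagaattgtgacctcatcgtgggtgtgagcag
Racgap1, chr15:99651657-99651906, minus strand: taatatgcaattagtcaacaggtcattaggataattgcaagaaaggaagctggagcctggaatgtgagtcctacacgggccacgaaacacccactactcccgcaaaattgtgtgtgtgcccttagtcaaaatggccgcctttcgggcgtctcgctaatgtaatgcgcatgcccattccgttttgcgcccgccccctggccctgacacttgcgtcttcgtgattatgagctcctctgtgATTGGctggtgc
In Cdk1 both words recur close to the start, with TTTGAA 71 and 15 bases and CCAAT 208, 80 and 48 bases before it. Ccnb2 has 3 CCAAT words, 87, 54 and 21 bases before its start, and Cenpa and Racgap1 have CCAAT without TTTGAA.

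The windows of 5 members that passed the test as higher in at least 1 knockdown follow. These are shown whether or not they hold a searched word, whereas the 5 windows above were picked among members that hold one. Mad2l1, Nuf2 and Birc5 also fell in both knockdowns and hold none of the words. The shown windows therefore cannot be used to compare how often the words occur.
Mki67, chr7:135716380-135716629, minus strand: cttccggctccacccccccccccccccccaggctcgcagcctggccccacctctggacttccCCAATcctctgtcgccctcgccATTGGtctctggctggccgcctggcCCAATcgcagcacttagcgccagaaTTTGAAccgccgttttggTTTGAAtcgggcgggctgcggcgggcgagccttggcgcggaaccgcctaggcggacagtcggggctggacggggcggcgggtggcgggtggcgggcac
Espl1, chr15:102296043-102296292, plus strand: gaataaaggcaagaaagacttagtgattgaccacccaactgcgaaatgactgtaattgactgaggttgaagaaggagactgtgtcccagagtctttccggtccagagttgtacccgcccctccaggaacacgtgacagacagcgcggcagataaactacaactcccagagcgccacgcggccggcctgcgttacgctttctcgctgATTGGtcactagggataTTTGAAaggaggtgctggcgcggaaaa
Cenpe, chr3:135212313-135212562, plus strand: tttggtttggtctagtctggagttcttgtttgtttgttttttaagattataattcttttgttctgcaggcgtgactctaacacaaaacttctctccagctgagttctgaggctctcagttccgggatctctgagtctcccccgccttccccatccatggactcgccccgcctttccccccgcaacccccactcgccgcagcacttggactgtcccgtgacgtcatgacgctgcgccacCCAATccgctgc
Cenpf, chr1:189688087-189688336, minus strand: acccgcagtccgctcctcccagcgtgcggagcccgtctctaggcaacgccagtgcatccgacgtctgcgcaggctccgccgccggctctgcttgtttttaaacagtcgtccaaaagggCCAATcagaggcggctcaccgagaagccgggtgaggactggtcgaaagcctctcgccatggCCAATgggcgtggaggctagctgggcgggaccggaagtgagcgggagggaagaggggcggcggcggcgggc
Pttg1, chr11:43425982-43426231, minus strand: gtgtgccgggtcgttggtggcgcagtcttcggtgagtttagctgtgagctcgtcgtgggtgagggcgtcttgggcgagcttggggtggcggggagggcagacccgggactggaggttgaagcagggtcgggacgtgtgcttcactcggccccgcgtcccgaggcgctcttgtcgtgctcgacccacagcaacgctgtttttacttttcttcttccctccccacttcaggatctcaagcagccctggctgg
Mki67 has 3 CCAAT and 2 TTTGAA words and Espl1 has 1 of each, so the words were not confined to members that fell. Cenpe and Cenpf have CCAAT alone, and Pttg1 has none of the 4 words. In shPhf5a, TTTGAA was present in 8 of the 18 members with an entry that fell, 1 of the 4 that rose and 3 of the 10 that did not pass. In shPaf1, it was present in 10 of 20, 2 of 2 and 0 of 10. CCAAT was present in 13 of 18, 3 of 4 and 8 of 10 in shPhf5a. In shPaf1, CCAAT was present in 13 of 20, 2 of 2 and 9 of 10, and no test was made of these counts.

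In both knockdowns most of the members that passed the test had fallen, by modest amounts, and a few had risen. After shPhf5a, 21 of the 39 members fell and 4 rose (Mki67, Cenpe, Pttg1 and Cenpf). After shPaf1, 22 fell and 3 rose (Espl1, Mki67 and Kif20a). Only Spc24, a subunit of the Ndc80 complex, fell at least 2-fold, and it did so in both. Mki67, the gene of the Ki-67 proliferation marker, rose in both while Top2a, Cdk1 and Cenpa fell in both. The test was limma's moderated fit over all 22180 genes, with Benjamini-Hochberg adjustment and a threshold of 0.05.

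Against shControl, 20.7% of all genes passed as lower and 16.7% as higher after shPhf5a, and 17.8% passed as lower and 18% as higher after shPaf1. Among the 39 members those shares were 53.8% lower and 10.3% higher after shPhf5a, and 56.4% lower and 7.69% higher after shPaf1. The members are bright, with mean levels of 10.64 to 10.65 on the control arrays beside a median gene level of 6.7. Fitted alone, the 11090 genes above the median level gave 4089 lower and 3104 higher after shPhf5a. After shPaf1 they gave 3616 lower and 3386 higher. Their lower shares thus lay between those of all genes and those of the members. The median change over the members was -0.20 after shPhf5a, beside -0.03 over all genes, and -0.27 after shPaf1, beside -0.01. In shPhf5a the arrays did not overlap those of shControl for 32 of 39 members, beside 45.8% of all genes, and in shPaf1 for 35 of 39, beside 48.3%. The 2 knockdowns share their control arrays, so each comparison's own values are given side by side: 16 members fell in both, 1 rose in both, 1 passed in opposite directions (Pttg1) and 7 passed in neither. The same joint count was not made over all genes, so these numbers have no background share beside them. Since RNA was taken from whole cultures, fewer cells in mitosis and less RNA per cell cannot be told apart.

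The shPhf5a arrays were spread more widely than the shPaf1 arrays. The median member stood at -0.29, -0.11 and -0.20 from its control mean on shPhf5a replicates 1, 2 and 3, and at -0.23, -0.27 and -0.24 on the shPaf1 arrays. Replicate 2 of shPhf5a was the nearest to control of its group for 20 of the 25 members that passed, and for 71.2% of all genes that passed in that comparison. It also kept the most Phf5a, 55.9% of the control mean, where replicates 1 and 3 kept 34.4% and 39.6%. Paf1 was left at 37.7%, 38.9% and 38.0% on the shPaf1 arrays. Each target was also below control in the other knockdown. Phf5a was at 64.3%, 62.0% and 76.2% on the shPaf1 arrays (-0.57, SE 0.16, limma adjusted p = 0.0183), a call lost when replicate 2 of shControl (-0.50) or replicate 1 (-0.54) or 2 (-0.51) of shPaf1 was left out. Paf1 was at 76.5%, 95.7% and 81.8% on the shPhf5a arrays (-0.25, SE 0.08, adjusted p = 0.0267), a call lost when replicate 1 (-0.24) or 2 (-0.23) of shControl, or replicate 1 (-0.18) or 3 (-0.22) of shPhf5a, was left out. The Paf1 call after shPhf5a was also lost when only the 6 arrays of shPhf5a and shControl were fitted (limma adjusted p = 0.067). Array medians over all probe sets lay between 6.22 and 6.31, and no array stood apart in its median.

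**Figure D1:**
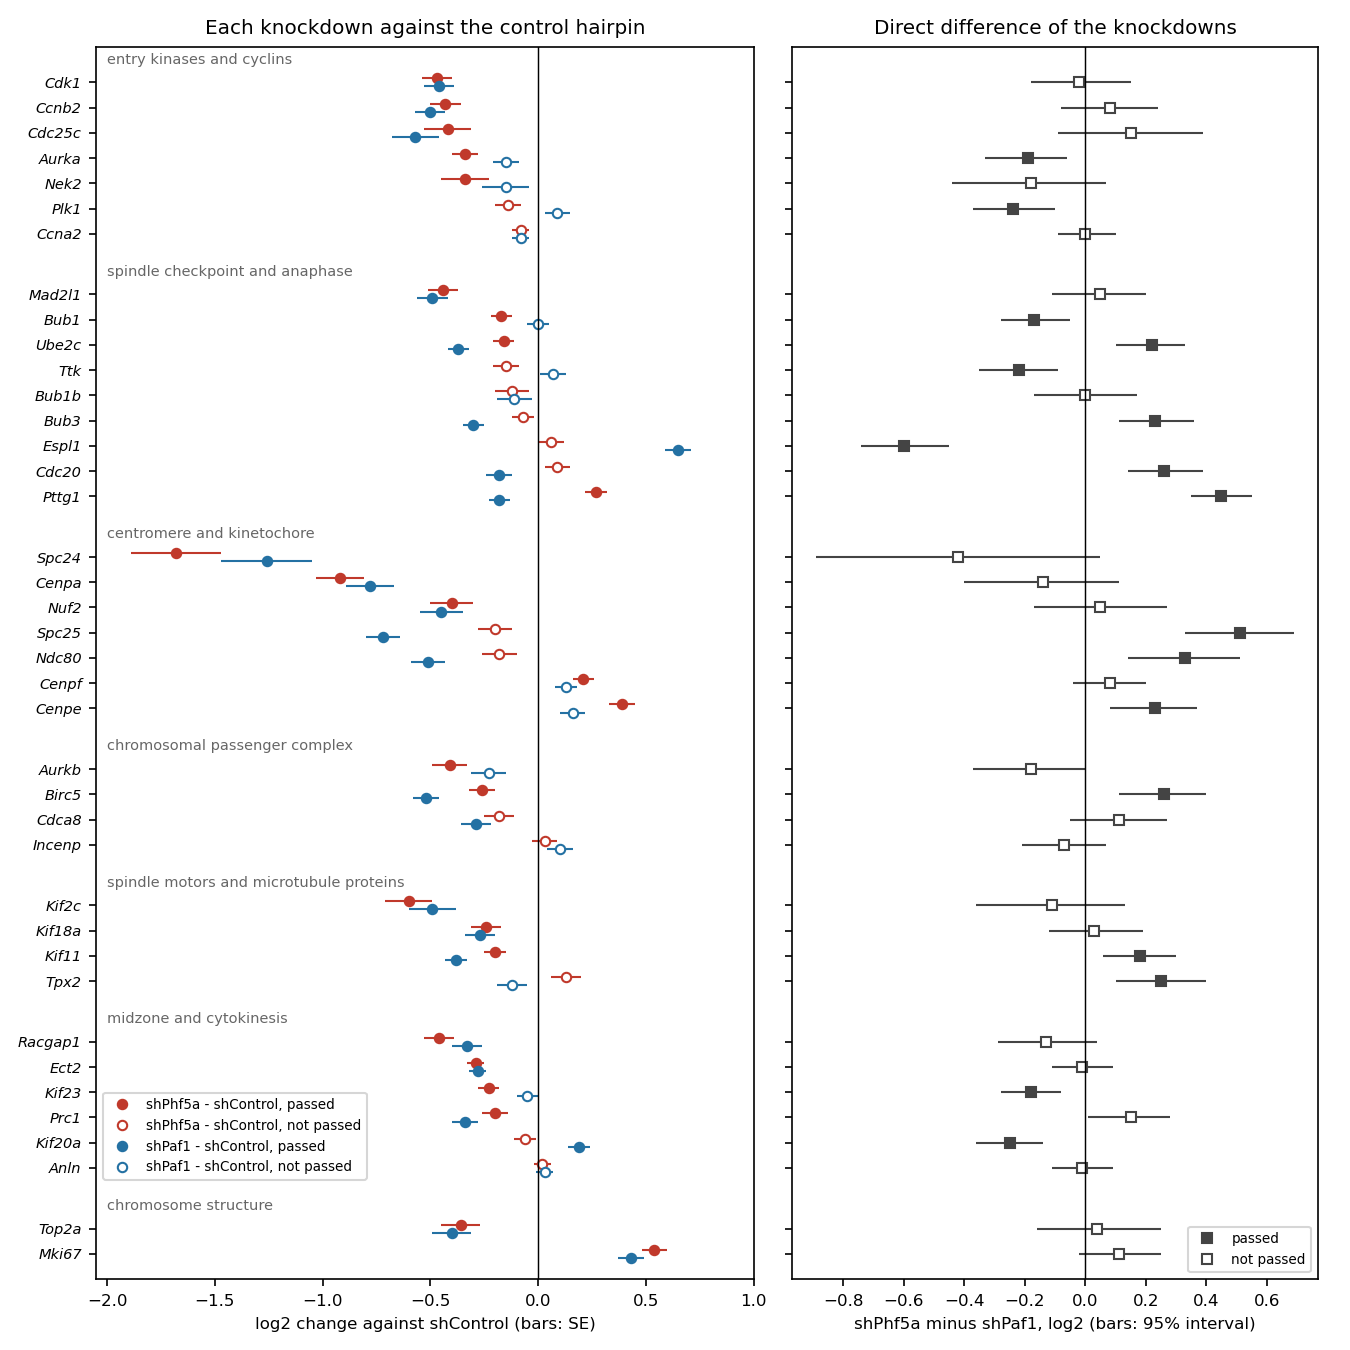
The left panel plots each member's log2 change against shControl (x axis, bars are standard errors) after shPhf5a (red) and shPaf1 (blue), grouped by role, with filled points for an adjusted p under 0.05. The right panel plots shPhf5a minus shPaf1 on the log2 scale with 95% intervals. Most filled points on the left lie below 0, Spc24 lies farthest out at -1.68 and -1.26, and Mki67 lies above 0 in both.

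Among the kinases and cyclins of mitotic entry, 5 of 7 fell after shPhf5a and 3 of 7 after shPaf1, and the others did not pass. That is 71.4% and 42.9% lower, beside 20.7% and 17.8% of all genes. Cdk1, the kinase that starts mitosis, read 12.19, 12.15 and 12.13 on the control arrays, 11.55, 11.85 and 11.66 after shPhf5a, and 11.76, 11.63 and 11.72 after shPaf1. Ccnb2, a B-type cyclin that activates Cdk1, read 11.91, 12.00 and 11.91 in control, 11.41, 11.68 and 11.46 after shPhf5a, and 11.47, 11.39 and 11.46 after shPaf1. Cdc25c, the phosphatase that removes the inhibitory phosphates of Cdk1, read 9.16, 9.19 and 9.10 in control, 8.44, 8.91 and 8.83 after shPhf5a, and 8.60, 8.63 and 8.51 after shPaf1. All control arrays of these genes lay above all knockdown arrays. Cdk1 fell by 0.47 (SE 0.07, limma adjusted p = 0.000725) after shPhf5a and by 0.46 (SE 0.07, adjusted p = 0.000839) after shPaf1. Ccnb2 fell by 0.43 and 0.50 (SE 0.07 in each), and Cdc25c by 0.42 and 0.57 (SE 0.11 in each).

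Of the 4 other entry genes, Aurka and Nek2 fell after shPhf5a, and the changes after shPaf1 did not pass with all arrays. Aurka, the Aurora kinase of centrosomes, fell by 0.34 (SE 0.06, limma adjusted p = 0.0016) after shPhf5a. Its change of -0.15 after shPaf1 had an adjusted p of 0.0965, and passed without shPhf5a replicate 1 (0.0359) or 2 (0.0361). It also passed when only the 6 arrays of shPaf1 and shControl were fitted (0.0168). The spread is pooled over the 3 groups, so leaving out a shPhf5a array alters that spread and not the shPaf1 change. Nek2, a kinase of centrosome separation, passed as lower after shPhf5a (-0.34, SE 0.11, adjusted p = 0.0399). Nek2 missed the threshold when any array other than shPhf5a replicate 2 was left out, with adjusted p from 0.0598 to 0.113, and stood at -0.21 without shPhf5a replicate 1. The Nek2 call after shPhf5a was also lost when only the 6 arrays of shPhf5a and shControl were fitted (adjusted p = 0.095) and under quantile normalization (-0.27, 0.0581). After shPaf1 the Nek2 change of -0.15 (adjusted p = 0.361) passed when only the 6 arrays of shPaf1 and shControl were fitted (0.0152). Set directly against shPaf1, Nek2 in shPhf5a differed by -0.18 (adjusted p = 0.288), which missed the threshold. Plk1, the Polo kinase, had changes of -0.14 and 0.09 that did not pass, and the first passed without shPhf5a replicate 2 (-0.21, adjusted p = 0.0059). The second passed as higher under quantile normalization (0.17, adjusted p = 0.0368). Ccna2, cyclin A, stood at -0.08 in both comparisons (SE 0.04) and passed in neither, with intervals of -0.18 to 0.02 and -0.18 to 0.01.

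The spindle checkpoint and anaphase genes moved in both directions. Of 9 genes, 3 fell and 1 rose after shPhf5a, and 5 fell and 1 rose after shPaf1. That is 33.3% lower and 11.1% higher after shPhf5a, and 55.6% and 11.1% after shPaf1. Over all genes the shares were 20.7% and 16.7% after shPhf5a, and 17.8% and 18% after shPaf1. The 11090 genes above the median level gave 4089 lower and 3104 higher after shPhf5a. The lower share of the checkpoint and anaphase genes was near theirs in that knockdown. Mad2l1, the checkpoint protein that binds Cdc20, read 11.33, 11.31 and 11.28 in control, 10.73, 11.01 and 10.85 after shPhf5a, and 10.80, 10.77 and 10.88 after shPaf1. It fell by 0.44 (SE 0.07, limma adjusted p = 0.000722) and by 0.49 (SE 0.07, adjusted p = 0.000372). Bub3, a partner of the Bub1 kinases, stood at -0.07 after shPhf5a, with overlapping arrays, and fell by 0.30 (SE 0.05) after shPaf1. Bub1 fell by 0.17 (SE 0.05, adjusted p = 0.0249) after shPhf5a and stood at 0.00 after shPaf1. The Bub1 call was lost without shControl replicate 2 (-0.14, adjusted p = 0.09), shControl replicate 3 (-0.17, 0.0548), shPhf5a replicate 1 (-0.16, 0.064) or shPhf5a replicate 3 (-0.15, 0.0791), and under quantile normalization (-0.09, 0.197). Bub1b, the BubR1 kinase, stood at -0.12 and -0.11 and Ttk, the Mps1 kinase, at -0.15 and 0.07, and neither passed. Without shPhf5a replicate 2, Ttk passed as lower after shPhf5a (-0.19, adjusted p = 0.0306).

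Securin and separase, which form a complex until anaphase, did not share their directions. Securin (Pttg1) read 7.54, 7.54 and 7.62 in control, 7.83, 7.89 and 7.79 after shPhf5a, and 7.40, 7.37 and 7.39 after shPaf1. Its 3 groups did not overlap: it rose by 0.27 (SE 0.05, limma adjusted p = 0.00123) after shPhf5a and fell by 0.18 (SE 0.05, adjusted p = 0.0117) after shPaf1. Separase (Espl1) read 9.58, 9.66 and 9.53 in control, 9.56, 9.77 and 9.60 after shPhf5a, and 10.27, 10.27 and 10.18 after shPaf1. It rose by 0.65 (SE 0.06, adjusted p = 3.96e-05) after shPaf1, to 157% of control, while its shPhf5a arrays overlapped control (0.06, interval -0.09 to 0.20).

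Both activating partners of the anaphase promoting complex in the list were lower after shPaf1. Ube2c, the ubiquitin-conjugating enzyme of that complex, read 11.64, 11.71 and 11.66 in control, 11.50, 11.51 and 11.54 after shPhf5a, and 11.36, 11.32 and 11.22 after shPaf1. It fell by 0.37 (SE 0.05, limma adjusted p = 0.000266) after shPaf1 and by 0.16 (SE 0.05, adjusted p = 0.0318) after shPhf5a. The fall after shPhf5a missed the threshold without shControl replicate 2 (-0.14, adjusted p = 0.104) or 3 (-0.16, 0.0663) and without shPhf5a replicate 1 (-0.15, 0.0737), 2 (-0.16, 0.0555) or 3 (-0.17, 0.0554). It also missed it with the replicate number as a block (adjusted p = 0.0571) and under quantile normalization (-0.08, 0.223). Cdc20 read 11.94, 11.92 and 11.96 in control, 11.97, 12.13 and 11.97 after shPhf5a, and 11.78, 11.80 and 11.72 after shPaf1. It fell by 0.18 (SE 0.06, adjusted p = 0.0325) after shPaf1, a call lost when any control array or any shPaf1 array was left out (adjusted p from 0.0548 to 0.11) and under quantile normalization (-0.04, adjusted p = 0.63).

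**Figure D2:**
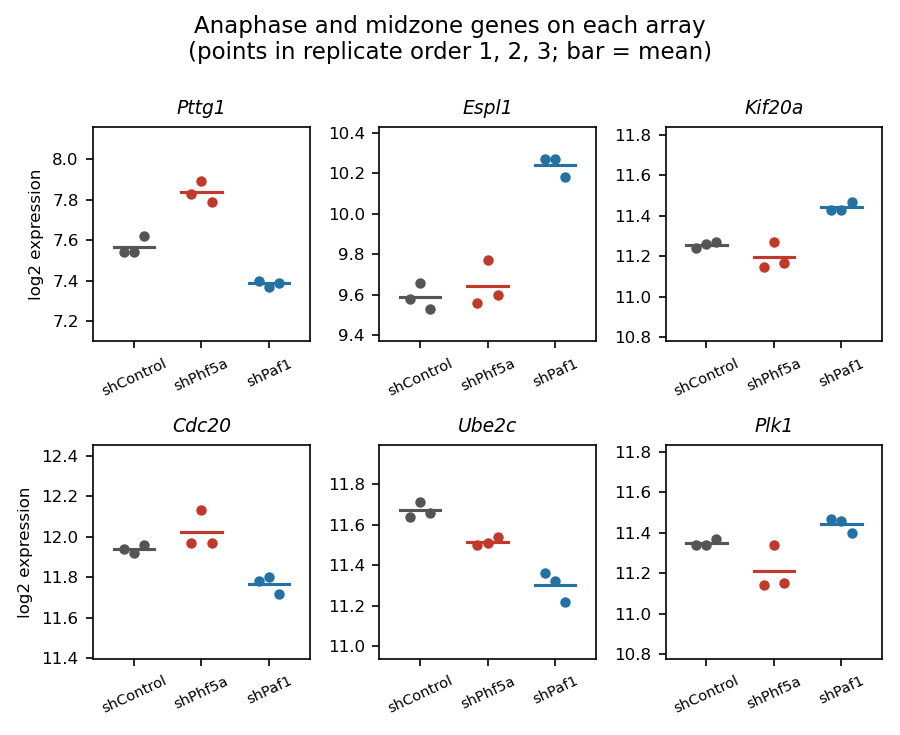
Deposited log2 expression (y axis) of 6 anaphase, entry and midzone genes on each array, by group; points stand in replicate order 1, 2, 3 and the bar is the group mean. Pttg1 lies above control after shPhf5a and below it after shPaf1. Espl1 and Kif20a lie above control after shPaf1, and their shPhf5a arrays overlap control.

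The centromere and kinetochore genes held the largest changes of the 39 members in both knockdowns, and also 2 of the 4 members that rose after shPhf5a. Spc24 read 9.77, 9.82 and 9.82 on the control arrays, 7.64, 8.67 and 8.05 after shPhf5a, and 8.71, 8.39 and 8.52 after shPaf1. The control arrays lay more than 1 log2 unit above the nearest array of either knockdown, and the knockdowns overlapped each other. Spc24 fell by 1.68 (SE 0.21, limma adjusted p = 0.000179) after shPhf5a, to 31.1% of control, and by 1.26 (SE 0.21, adjusted p = 0.000893) after shPaf1, to 41.6%. Cenpa, the histone variant that marks the centromere, read 11.15, 11.26 and 11.19 in control, 10.05, 10.58 and 10.20 after shPhf5a, and 10.46, 10.33 and 10.47 after shPaf1. It fell by 0.92 (SE 0.11, adjusted p = 0.000193) to 52.9% of control and by 0.78 (SE 0.11, adjusted p = 0.000475) to 58.4%.

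The 4 subunits of the Ndc80 complex all passed as lower after shPaf1, but not after shPhf5a. The complex is a rod with Ndc80 and Nuf2 at the microtubule end and Spc24 and Spc25 at the chromosome end. Spc25 read 9.35, 9.36 and 9.34 in control, 9.04, 9.31 and 9.09 after shPhf5a, and 8.70, 8.50 and 8.70 after shPaf1. Ndc80 read 10.80, 10.81 and 10.74 in control, 10.40, 10.67 and 10.74 after shPhf5a, and 10.22, 10.27 and 10.34 after shPaf1. Nuf2 read 10.26, 10.23 and 10.18 in control, 9.57, 10.03 and 9.88 after shPhf5a, and 9.79, 9.72 and 9.81 after shPaf1. After shPaf1 all 4 fell, Spc25 by 0.72 (SE 0.08, limma adjusted p = 8.58e-05), Ndc80 by 0.51 (SE 0.08) and Nuf2 by 0.45 (SE 0.10) beside the 1.26 of Spc24. After shPhf5a Spc24 and Nuf2 (by 0.40, SE 0.10, adjusted p = 0.00949) fell, whereas Spc25 (-0.20, adjusted p = 0.0762) and Ndc80 (-0.18, adjusted p = 0.129) did not pass. Spc25 passed without shPhf5a replicate 2 (-0.29, adjusted p = 0.00777) and Ndc80 without shPhf5a replicate 3 (-0.25, adjusted p = 0.0498).

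The large kinetochore proteins Cenpe and Cenpf moved the other way. Cenpe, a kinesin motor of the outer kinetochore, read 9.55, 9.59 and 9.54 in control, 9.92, 9.96 and 9.95 after shPhf5a, and 9.56, 9.80 and 9.78 after shPaf1. Cenpf, a large coiled-coil protein of the outer kinetochore, read 9.43, 9.39 and 9.40 in control, 9.53, 9.65 and 9.68 after shPhf5a, and 9.49, 9.55 and 9.58 after shPaf1. Every shPhf5a array lay above every control array for both genes, and Cenpe rose by 0.39 (SE 0.06, limma adjusted p = 0.00108) and Cenpf by 0.21 (SE 0.05, adjusted p = 0.00889). After shPaf1 the differences of 0.16 and 0.13 had adjusted p of 0.0936 and 0.0746. Cenpe passed without shPaf1 replicate 1 (0.23, adjusted p = 0.00617) and Cenpf without shPhf5a replicate 1 (0.13, adjusted p = 0.0408) or under quantile normalization (0.15, adjusted p = 0.0386). Cenpf also passed when only the 6 arrays of shPaf1 and shControl were fitted (0.13, adjusted p = 0.0372).

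**Figure D3:**
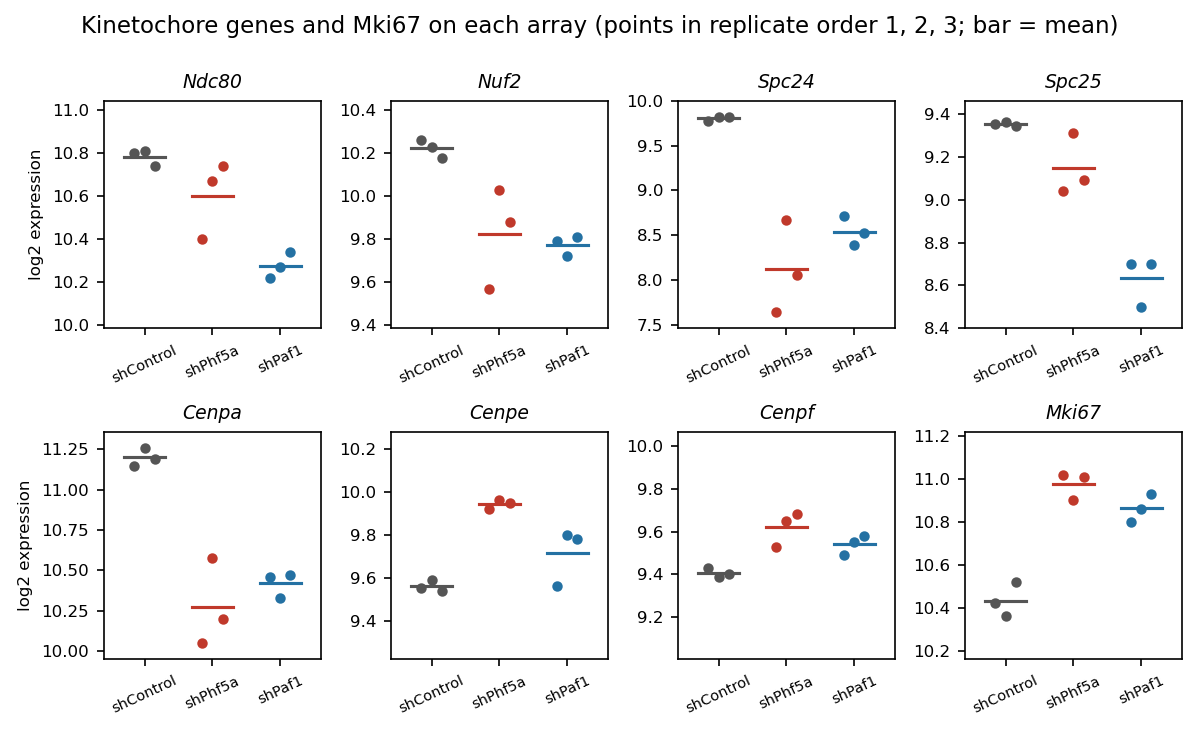
Deposited log2 expression (y axis, scaled per gene) of the 4 Ndc80 complex genes, Cenpa, Cenpe, Cenpf and Mki67 on each array, by group; points stand in replicate order 1, 2, 3 and the bar is the group mean. Spc24 and Cenpa fall in both knockdowns, Mki67 rises in both, and Spc25 and Ndc80 lie lower after shPaf1 than after shPhf5a.

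The chromosomal passenger complex corrects wrong attachments, and 2 of its 4 measured genes fell after each hairpin (50%, beside 20.7% and 17.8% of all genes). Aurkb, its kinase, read 10.59, 10.61 and 10.56 in control, 10.08, 10.36 and 10.08 after shPhf5a, and 10.26, 10.35 and 10.46 after shPaf1. Birc5 (survivin) read 10.06, 10.07 and 10.10 in control, 9.73, 9.93 and 9.78 after shPhf5a, and 9.53, 9.49 and 9.65 after shPaf1. Cdca8 (borealin) read 9.57, 9.46 and 9.51 in control, 9.30, 9.44 and 9.25 after shPhf5a, and 9.34, 9.11 and 9.20 after shPaf1. Knockdown arrays lay below control arrays for all 3 genes. Birc5 fell by 0.26 (SE 0.06, limma adjusted p = 0.00876) and by 0.52 (SE 0.06, adjusted p = 0.000155). Aurkb fell by 0.41 (SE 0.08) after shPhf5a, and its -0.23 after shPaf1 had an adjusted p of 0.0569. Cdca8 fell by 0.29 (SE 0.07) after shPaf1, and its -0.18 after shPhf5a had an adjusted p of 0.0724. Without shPhf5a replicate 2 both of those passed, Aurkb after shPaf1 at 0.00967 and Cdca8 after shPhf5a at 0.0258. Aurkb also passed without shPaf1 replicate 3 (0.0445) and Cdca8 without shPaf1 replicate 1 (0.0488). With only the 6 arrays of shPaf1 and shControl fitted, Aurkb passed as well (0.0147). Incenp, the scaffold of the complex, stood at 0.03 and 0.10 and did not pass (intervals -0.11 to 0.17 and -0.04 to 0.24).

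Of the 4 spindle motors and microtubule proteins, 3 fell in each knockdown (75%, beside 20.7% of all genes after shPhf5a and 17.8% after shPaf1). Kif2c (MCAK), which removes tubulin from microtubule ends, read 10.69, 10.69 and 10.61 in control, 9.85, 10.32 and 10 after shPhf5a, and 10.07, 10.14 and 10.30 after shPaf1. Kif11 (Eg5), which pushes the spindle poles apart, read 11.42, 11.41 and 11.38 in control, 11.17, 11.25 and 11.20 after shPhf5a, and 10.98, 10.97 and 11.12 after shPaf1. Kif18a, which damps chromosome movements at the metaphase plate, read 9.71, 9.72 and 9.70 in control, 9.31, 9.55 and 9.56 after shPhf5a, and 9.48, 9.44 and 9.39 after shPaf1. No knockdown array reached the control range for these genes. Kif2c fell by 0.60 (SE 0.11, limma adjusted p = 0.0016) and 0.49 (SE 0.11, adjusted p = 0.00536), Kif11 by 0.20 and 0.38 (SE 0.05), and Kif18a by 0.24 and 0.27 (SE 0.07). After shPhf5a, the Kif18a call was lost without shControl replicate 1 (-0.24, adjusted p = 0.0524) or 2 (-0.23, 0.0561), and the Kif11 call under quantile normalization (-0.13, 0.0818). Tpx2, an activator of Aurka, stood at 0.13 and -0.12 and passed in neither, but the first passed as higher under quantile normalization (0.21, adjusted p = 0.0196).

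Among the midzone and cytokinesis genes, 4 of 6 fell after shPhf5a, and 3 fell and 1 rose after shPaf1. The lower shares were 66.7% and 50%, beside 20.7% and 17.8% of all genes. Racgap1, the GTPase-activating subunit of centralspindlin, read 10.95, 10.94 and 10.94 in control, 10.37, 10.66 and 10.43 after shPhf5a, and 10.66, 10.58 and 10.59 after shPaf1. Ect2, the exchange factor that activates RhoA at the division plane, read 12.23, 12.22 and 12.24 in control, 11.92, 12.01 and 11.91 after shPhf5a, and 11.96, 11.96 and 11.95 after shPaf1. Prc1, which bundles midzone microtubules, read 10.81, 10.70 and 10.78 in control, 10.47, 10.63 and 10.60 after shPhf5a, and 10.40, 10.39 and 10.48 after shPaf1. Control and knockdown arrays did not overlap for these genes. Racgap1 fell by 0.46 and 0.33 (SE 0.07), Ect2 by 0.29 and 0.28 (SE 0.04), and Prc1 by 0.20 and 0.34 (SE 0.06), all with limma adjusted p under the threshold. The Prc1 call after shPhf5a (adjusted p = 0.0252) was lost without shControl replicate 1 (-0.17, 0.0891) or 3 (-0.19, 0.0721) or shPhf5a replicate 1 (-0.15, 0.0765), with only the 6 arrays compared (-0.20, 0.0519) and under quantile normalization (-0.11, 0.149).

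The midzone kinesins passed in different knockdowns. Kif20a (MKLP2), which carries the passenger complex to the midzone, read 11.24, 11.26 and 11.27 in control, 11.15, 11.27 and 11.17 after shPhf5a, and 11.43, 11.43 and 11.47 after shPaf1. It rose by 0.19 (SE 0.05, limma adjusted p = 0.0117) after shPaf1, and its shPhf5a arrays overlapped control (-0.06). Kif23 (MKLP1), the motor subunit of centralspindlin, fell by 0.23 (SE 0.05, adjusted p = 0.00285) after shPhf5a and stood at -0.05 after shPaf1. Anln, the anillin scaffold of the contractile ring, stood at 0.02 and 0.03 with intervals of -0.08 to 0.11 and -0.07 to 0.13.

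The 2 chromosome structure genes went in opposite directions in each knockdown. Mki67, whose product coats mitotic chromosomes, read 10.42, 10.36 and 10.52 in control, 11.02, 10.90 and 11.01 after shPhf5a, and 10.80, 10.86 and 10.93 after shPaf1. Top2a, the topoisomerase that separates sister chromatids, read 11.49, 11.53 and 11.48 in control, 10.92, 11.31 and 11.19 after shPhf5a, and 11.07, 11.03 and 11.19 after shPaf1. For both genes the control arrays lay wholly outside the knockdown arrays, below them for Mki67 and above them for Top2a. After shPaf1 Mki67 rose by 0.43 (SE 0.06, limma adjusted p = 0.000346) and Top2a fell by 0.40 (SE 0.09, adjusted p = 0.00621). After shPhf5a Top2a fell by 0.36 (SE 0.09, adjusted p = 0.0112), and Mki67 stood at 146% of control.

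Set directly against each other, the knockdowns differed in 17 of the 39 members. In shPhf5a 10 members were higher than in shPaf1 and 7 were lower, that is 25.6% and 17.9% of the members, beside 12.7% and 16.3% of all genes. Of the 11090 genes above the median level, fitted alone, 2455 were higher and 3298 lower. The members' higher share was near that of these brighter genes, and their lower share was below it. Arrays of the groups did not overlap for 17 of 39 members, beside 37.7% of all genes, and the median difference was 0.03, beside -0.02 over all genes. The differences that passed under each of the 18 other settings were those of Spc25 (0.51, SE 0.08, limma adjusted p = 0.00102), Pttg1 (0.45, SE 0.05, adjusted p = 9.19e-05), Cdc20 (0.26, SE 0.06) and Ube2c (0.22, SE 0.05), higher in shPhf5a. Espl1 (-0.60, SE 0.06, adjusted p = 0.000121) and Kif20a (-0.25, SE 0.05) were lower in shPhf5a under each of them. Cdc20, Ube2c, Bub3 (0.23) and securin stood lower after shPaf1, while separase stood higher there.

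The other calls of the direct comparison were less firm. Ndc80 (0.33), Birc5 (0.26), Tpx2 (0.25), Cenpe (0.23) and Kif11 (0.18) were higher in shPhf5a, and Plk1 (-0.24), Ttk (-0.22), Aurka (-0.19), Kif23 (-0.18) and Bub1 (-0.17) were lower, with limma adjusted p from 0.0133 to 0.0392. Each of these lost its call without at least 1 array, with adjusted p between 0.0501 and 0.116, and Bub3 lost its call under quantile normalization (0.14, adjusted p = 0.0955). Without shPhf5a replicate 3, Plk1 (-0.21), Aurka (-0.20), Bub1 (-0.15), Kif11 (0.18), Cenpe (0.22), Ttk (-0.21), Ndc80 (0.26) and Kif23 (-0.17) missed the threshold. Without shPaf1 replicate 1, Aurka (-0.18), Bub1 (-0.14), Kif11 (0.16), Cenpe (0.15), Ndc80 (0.30), Kif23 (-0.17) and Tpx2 (0.20) missed it. Without shPaf1 replicate 2, Aurka (-0.21), Bub1 (-0.16), Kif11 (0.16), Ttk (-0.20) and Birc5 (0.22) did. Aurka also missed it without any other array except shPhf5a replicate 2, Bub1 without shControl replicate 3 or shPhf5a replicate 1, Ttk without shPhf5a replicate 1 or shPaf1 replicate 3, and Kif11 without shPhf5a replicate 2. Leaving out shPhf5a replicate 2 added 6 genes as lower in shPhf5a, namely Spc24 (-0.70, adjusted p = 0.00195), Nek2 (-0.33), Cenpa (-0.29), Aurkb (-0.28), Kif2c (-0.25) and Racgap1 (-0.21). With all arrays Spc24 differed by -0.42 (interval -0.89 to 0.05) and Cenpa by -0.14 (interval -0.40 to 0.11). Leaving out shPhf5a replicate 1 added Cdc25c (0.29) and Prc1 (0.19) as higher in shPhf5a.

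Members that did not differ in the direct comparison were bounded as follows. Cdk1 differed by -0.02 (interval -0.18 to 0.15), Ccna2 by 0.00 (-0.09 to 0.10), Ect2 by -0.01 (-0.11 to 0.09), Mad2l1 by 0.05 (-0.11 to 0.20) and Top2a by 0.04 (-0.16 to 0.25). Mki67 differed by 0.11 (interval -0.02 to 0.25). A miss of the threshold does not show that these levels were alike beyond those intervals.

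Genes outside the 40 that act in the same structures gave the setting for these counts. Of 29 further kinetochore genes measured, 21 fell and 1 rose after shPhf5a and 25 fell and 2 rose after shPaf1, with median changes of -0.26 and -0.37. Their lower shares were 72.4% and 86.2%, beside 20.7% and 17.8% of all genes. Ska1, which couples the Ndc80 complex to shrinking microtubules, fell by 1.05 (SE 0.14, limma adjusted p = 0.000278) and 0.88 (SE 0.14). Cenph, of the inner kinetochore, fell by 1.00 and 0.90 (SE 0.11), and its partner Cenpk fell by 0.71 (SE 0.07) after shPaf1 and stood at -0.14 after shPhf5a, where it passed without replicate 3 (-0.22, adjusted p = 0.0168). Cenpt rose by 0.21 after shPhf5a and fell by 0.34 after shPaf1, and Zwint fell by 0.21 and rose by 0.46 (SE 0.05 in each). Cenpk, Cenpt and Zwint were picked out after their values were seen, and the fall of Zwint missed the threshold under quantile normalization (-0.13, adjusted p = 0.0588).

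Of the 17 genes of the anaphase promoting complex and its partners, 10 fell after shPhf5a and 10 after shPaf1, with medians of -0.42 and -0.26, and the others did not pass. That is 58.8% lower in each, beside 20.7% and 17.8% of all genes. Cdc26, a small scaffold subunit, fell by 0.99 and 0.69 (SE 0.13), Anapc15 by 0.91 and 0.64 (SE 0.11), and Anapc4 by 0.75 and 0.72 (SE 0.13). Of 36 spindle and cytokinesis genes, 17 fell and 4 rose after shPhf5a and 20 fell and 3 rose after shPaf1. The lower shares of these genes were 47.2% and 55.6%. Haus7, a subunit of the augmin complex that branches spindle microtubules, fell by 1.04 and 0.94 (SE 0.14), and Haus1 by 0.76 and 1.07 (SE 0.08). Kif18b, a kinesin of astral microtubules, read 10.39, 10.25 and 10.38 in control, 11.35, 11.21 and 11.29 after shPhf5a, and 11.08, 11.19 and 11.13 after shPaf1, so it rose by 0.95 and 0.79 (SE 0.06) without overlap.

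Of 20 condensin and cohesin genes, 3 fell and 2 rose after shPhf5a and 7 fell and 3 rose after shPaf1, with medians of -0.01 and -0.05. After shPhf5a only 1 fell without shControl replicate 1 or 2, and 1 rose without shControl replicate 1 or 3 or shPhf5a replicate 3. The condensin and cohesin shares were 15% lower and 10% higher after shPhf5a, and 35% and 15% after shPaf1. Over all genes they were 20.7% and 16.7% after shPhf5a, and 17.8% and 18% after shPaf1. After shPhf5a both condensin and cohesin shares thus lay below those of all genes. Of 14 genes that control mitotic entry, 4 fell and 3 rose after shPhf5a and 5 fell and 2 rose after shPaf1, where 1 rose without any 1 control array or without shPaf1 replicate 2 or 3. Their shares were 28.6% lower and 21.4% higher after shPhf5a, and 35.7% and 14.3% after shPaf1. Of the 11090 genes above the median level, 4089 were lower and 3104 higher after shPhf5a. After shPaf1, 3616 of those were lower and 3386 higher. Lats2, a kinase of the Hippo pathway, rose by 1.10 and 1.23 (SE 0.11), and Bora, which helps Aurka activate Plk1, fell by 0.81 and 0.48 (SE 0.12). Mastl (Greatwall), the kinase that restrains the PP2A phosphatase in mitosis, stood at 0.18 after shPhf5a and fell by 0.50 (SE 0.07) after shPaf1, and its difference between the knockdowns was 0.68 (limma adjusted p = 9.95e-05). The value after shPhf5a passed as higher without shPhf5a replicate 1 (0.25, adjusted p = 0.0155) and under quantile normalization (0.28, adjusted p = 0.00624). For comparison, 36 of 41 DNA replication genes fell after shPhf5a and 27 after shPaf1, with medians of -0.51 and -0.33. The second count dropped to 17 when shControl replicate 2 was left out, and likewise for replicates 2 and 3 of shPaf1. Of 14 cyclin and kinase genes of the first gap phase, 9 fell and 2 rose after shPhf5a and 8 fell and 3 rose after shPaf1, and without shControl replicate 1 the latter fall counted 5.

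**Figure D4:**
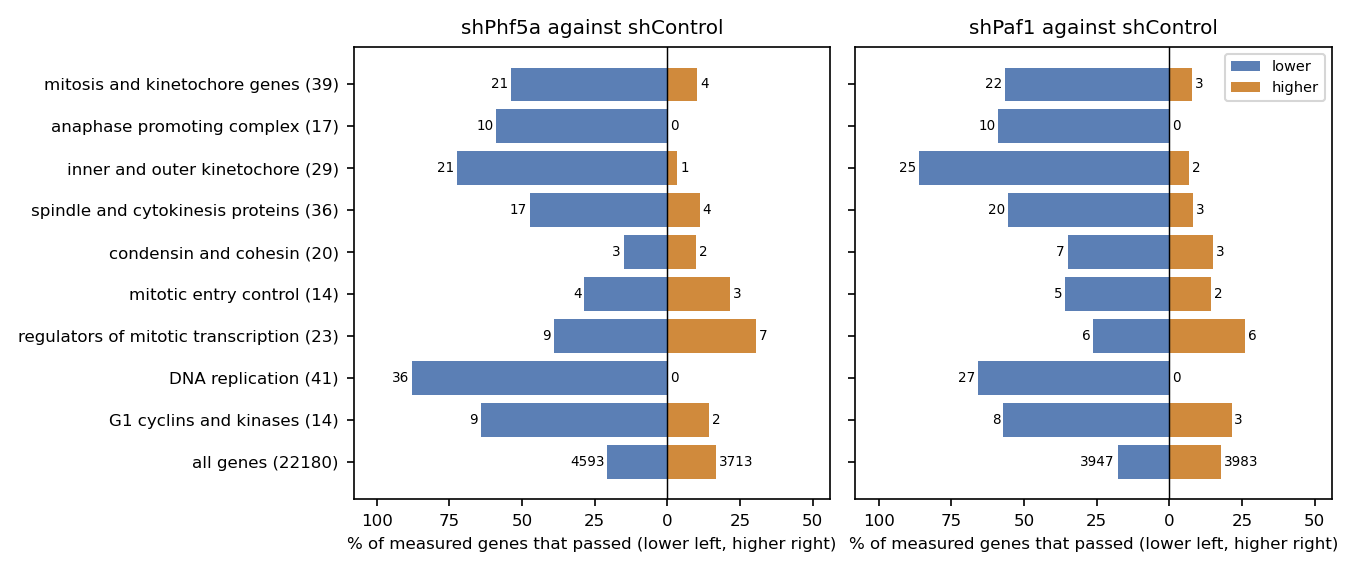
Share of the measured genes of each list (x axis, percent) that passed as lower (blue, to the left) or higher (orange, to the right) against shControl after shPhf5a (left panel) and shPaf1 (right panel), with the counts printed at the bars and the number measured in brackets. The lower share of the mitosis and kinetochore genes is 53.8% and 56.4%, against 20.7% and 17.8% of all genes, dim genes included.

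The known transcriptional regulators of this gene group did not move in a single direction. Of 23 measured, 9 fell and 7 rose after shPhf5a, and 6 fell and 6 rose after shPaf1. That is 39.1% lower and 30.4% higher after shPhf5a, and 26.1% each after shPaf1. Over all genes the shares were 20.7% and 16.7% after shPhf5a, and 17.8% and 18% after shPaf1. Genes above the median level also went both ways: of 11090, 4089 were lower and 3104 higher after shPhf5a. After shPaf1, 3616 of them were lower and 3386 higher. Mixed directions were thus not particular to the regulators. Foxm1, the forkhead activator of late cell cycle genes, read 8.88, 8.73 and 8.65 in control, 9.06, 9.12 and 9.06 after shPhf5a, and 9.32, 9.49 and 9.39 after shPaf1. It rose by 0.33 (SE 0.07, limma adjusted p = 0.00331) and 0.65 (SE 0.07, adjusted p = 5.55e-05), and was higher in shPaf1 than in shPhf5a (difference -0.32, adjusted p = 0.00586). Mybl2 (B-Myb) fell by 0.31 and 0.32 (SE 0.07). Among the MuvB subunits, Lin54, which binds the homology region, rose by 0.30 and 0.24 (SE 0.05), Lin9 and Lin37 fell by 0.46 (SE 0.08) and 0.48 (SE 0.07) after shPaf1 and stood at -0.13 and -0.12 after shPhf5a, and Lin52 passed in neither (0.10 and -0.04). Without shPhf5a replicate 2, Lin37 passed as lower (-0.20, adjusted p = 0.0219) and Lin52 as higher (0.16, adjusted p = 0.0265) after shPhf5a.

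Among the repressor and NF-Y genes, E2f4 and Nfya differed between the knockdowns. E2f4, the E2F of the DREAM complex, fell by 0.62 (SE 0.07, limma adjusted p = 0.000133) after shPhf5a and stood at 0.06 after shPaf1, a difference of -0.68 (adjusted p = 0.000115). Nfya rose by 0.35 (SE 0.06) after shPhf5a and stood at 0.08 after shPaf1, a difference of 0.27 (adjusted p = 0.011). Nfyb fell by 0.63 and 0.88 (SE 0.16), and its difference of 0.25 did not pass (adjusted p = 0.32). Cdkn1a (p21), an inhibitor of cyclin-dependent kinases, rose by 1.32 and 1.04 (SE 0.09), and Rb1 rose by 1.45 and 0.79 (SE 0.12). The Cdkn1a difference of 0.28 (adjusted p = 0.0376) missed the threshold in 9 of 17 other settings, among them each array left out except shPhf5a replicate 2 and shPaf1 replicate 2, and was 0.18 without shPhf5a replicate 1. Trp53 had no probe set of a single symbol in the annotation and is not given.

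Markers of the line and of other cell types moved in the same cultures. Of 8 embryonic stem cell markers, 6 fell in each knockdown, and their mean level was 10.32 to 10.38 on the control arrays, 9.93 to 10.14 after shPhf5a and 9.83 to 9.86 after shPaf1. Of 8 trophoblast markers, 7 rose after shPhf5a and 5 rose and 1 fell after shPaf1, with mean levels of 7.08 to 7.22, 8.11 to 8.40 and 8.14 to 8.24. The median change of these markers was 1.04 and 0.39, Krt18 had the largest (2.49 and 3.21), and Tfap2c was the 1 that fell. The 7 became 6 under quantile normalization and 5 with only the 6 arrays compared. Of 8 primitive endoderm markers, 5 rose in each, with mean levels of 6.89 to 7.01, 7.37 to 7.72 and 7.46 to 7.50. Of 8 fibroblast markers, 1 rose after shPhf5a and 3 after shPaf1, with mean levels of 5.90 to 5.93, 5.93 to 5.99 and 6.15 to 6.24, below the median gene level of 6.70 in every group. The 1 that rose after shPhf5a was Pdgfra, which is also counted among the primitive endoderm markers. Over all genes, 20.7% and 17.8% passed as lower and 16.7% and 18% as higher after shPhf5a and shPaf1. The part of these marker shifts in the changes of the mitotic genes was not tested.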

How the data were processed

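Total RNA of 3 groups with 3 arrays each was measured on Affymetrix whole-transcript arrays, from 125 ng of RNA per sample, per the labels' protocols. The authors deposited processed expression values, 1 per probe set and array, which were taken as log2. They ran from 4.35 to 13.7 with array medians of 6.22 to 6.31, from which the log base is inferred. How background and normalization were handled, and in which software, is not given in the sources used here. Of 33793 probe sets, 23521 name 1 gene symbol in the platform annotation, 1814 name several and 8458 are not listed. Probe sets with several symbols were left out, among them those that list Top2a with another gene. The probe set with the highest mean was kept per symbol, which gave 22180 genes.

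Group means were estimated from all 9 arrays together in R 4.3.3, by lmFit followed by eBayes of limma 3.58.1. Adjusted p-values are Benjamini-Hochberg over all genes in each of the 3 comparisons, with a threshold of 0.05, and intervals are 95% from the same fit. The fit was tested on simulated data with few changed genes and the same spread in every group. The shPhf5a arrays were spread more widely than the others, a setting which that test did not cover. The number of arrays limits the precision. The members, their roles and the other lists were chosen with earlier results of these data known. Values on every array are given for the members with the largest changes in each of 7 roles and for those that rose, and also for Spc25, Ndc80, Nuf2, Ube2c, Cdc20, Kif18b and Foxm1, the first 6 of them added after their values were seen. Promoter windows are those of the called members with the largest change after shPhf5a that hold a searched word, and of members that rose. Alternatives were another normalization, centring, a filter on dim genes, the probe set rule, the variance model, array weights, fewer arrays, the replicate number as a block, and each array left out.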

Additional observations from a re-analysis of the deposited data

How the results depend on the processing

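Across 18 other settings no member that passed changed its direction. After shPhf5a 19 of the 25 calls, and after shPaf1 24 of 25, passed in every setting, but only 6 of the 17 calls of the direct comparison did. Not all settings could move a member's change. The probe set rule left the values of every member as they were, since each has 1 such probe set. Leaving out an array of the group not compared altered only the pooled spread. With each array left out in turn, shPhf5a gave 17 to 24 lower and 4 higher members and a median of -0.23 to -0.16, and shPaf1 gave 21 to 24 lower, 3 to 4 higher and a median of -0.27 to -0.24, the last without shPaf1 replicate 2. The direct comparison gave 6 to 12 higher and 2 to 13 lower, and its median ran from -0.03 to 0.09. Its lower count was 2 without shPhf5a replicate 3, 13 without shPhf5a replicate 2, and 4 without shPhf5a replicate 1, shPaf1 replicate 1 or shPaf1 replicate 2, and its higher count was 6 without shPaf1 replicate 1. Under quantile normalization the shPhf5a median was -0.13, with 16 lower and 5 higher, and Bub1, Kif11, Nek2, Prc1 and Ube2c lost their calls. With array weights its lower count was 25. For shPaf1, the higher count was 5 under quantile normalization and 5 with array weights, and the median was -0.17 under quantile normalization and -0.29 with arrays centred. The direct lower count was 4 with only the 6 arrays compared. The cause was not tested.

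The replicate number is shared between groups, but the deviations of same-numbered arrays from their group means correlated by only -0.06 to 0.11 over genes, so the number was not taken as a pairing. With it as a block, shPhf5a gave 4 higher and 20 lower, shPaf1 3 and 22, and the direct comparison 9 and 6. Ube2c after shPhf5a (adjusted p = 0.0571) and, between the knockdowns, Aurka (0.0585) and Kif11 (0.0509) were lost, each by limma.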
